A study of Caenorhabditis elegans with 2 samples.

Results

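The right end of chromosome V of Caenorhabditis elegans was examined in a ChIP-seq map of the transcription factor PAG-3. It was taken as the last of 5 equal parts of the chromosome, from position 16739345 to 20924180 in build ce11 (the WBcel235 assembly). Its members were all candidate regions of the pooled list on chromosome V with a summit, the highest point of the region, at or beyond the first of these positions. There were 1492 members among 21336 regions in all (6.99%), on 4.18 Mb that make up 4.17% of the nuclear genome. The stretch was chosen by its measured density of candidate regions and of strong peaks after these had been seen, so counts, densities and signal values are given as a description, with no test. The bound is a matter of length alone. The last region before it had its summit at 16728984 and a signal value of 50.8, and the first member had its summit at 16742703 and a signal value of 68.2.

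The study precipitated PAG-3 fused at its C terminus to GFP and FLAG, with an antibody against GFP, from chromatin of whole worms that had been sheared by sonication. The worms were hermaphrodites of strain OP154, which carries unc-119(ed3) III and the integrated transgene wgIs154, and were taken as late embryos 4 hours after synchronisation by egg bleaching. The series held 1 group of 2 biological replicates and no second condition. The transgene is a tagged copy from an insertion, every sample came from the same strain, and whole embryos mix all tissues, so a region cannot be assigned to a cell type. Each replicate and the pool of both had a list of candidate regions, described by the authors as peaks and background, and the pool had a shorter list of peaks past a threshold on the irreproducible discovery rate (IDR). The lists give a signal value for each region, made by the authors' peak caller relative to a control. They hold no read counts, so the depth of each replicate was unknown.

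PAG-3 is a zinc-finger protein of the GFI family, known for its part in fixing the identity of touch receptor and other neurons. The ends of C. elegans autosomes are known as arms. They recombine more, hold more repeats and pseudogenes than the centres, and carry large families of chemoreceptor and F-box genes that expanded by local duplication, above all on chromosome V. Chemoreceptors are membrane receptors that act mainly in sensory neurons, and F-box proteins choose the targets of ubiquitin ligases. The right arm of V also carries the tandem array of genes for 5S ribosomal RNA and for SL1, the short leader RNA that is spliced onto the start of many messenger RNAs.

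The sequences shown first are those of 4 of the strongest members, which differ in where they lie and in base content, and those of the 5S and SL1 genes with the one pooled region inside their array. All are read from the RefSeq genome in the WBcel235 build, 5′ to 3′, on the plus strand unless said otherwise. In the region nearest to Y43F8C.7, at chrV:19643106-19643343, capitals mark the 82 of its bases that lie in the snoRNA gene Y43F8C.22. That gene spans 138 bases on the minus strand, from 19643050 to 19643187. The other regions are windows of 101 bases centred on the summit, with the 21 central bases in capitals. They lie at chrV:17512871-17512971 (nearest to srw-32), chrV:19621115-19621215 (Y43F8C.3), chrV:17962675-17962775 (gck-3) and chrV:17128117-17128217 (the array region). In the SL1 gene, at chrV:17120694-17120791 on the minus strand, capitals mark the 22 bases of the leader, which start at base 2. The 5S gene lies at chrV:17120968-17121086 and has no capitals.
Y43F8C.7: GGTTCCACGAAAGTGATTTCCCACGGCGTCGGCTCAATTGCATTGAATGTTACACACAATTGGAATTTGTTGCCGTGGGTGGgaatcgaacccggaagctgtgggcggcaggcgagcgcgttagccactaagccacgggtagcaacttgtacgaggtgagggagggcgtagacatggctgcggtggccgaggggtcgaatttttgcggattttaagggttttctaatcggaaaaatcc
srw-32: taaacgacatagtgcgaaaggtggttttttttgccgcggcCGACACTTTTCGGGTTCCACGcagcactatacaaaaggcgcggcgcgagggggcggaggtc
Y43F8C.3: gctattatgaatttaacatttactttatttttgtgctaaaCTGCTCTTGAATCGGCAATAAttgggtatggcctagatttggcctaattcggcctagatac
gck-3: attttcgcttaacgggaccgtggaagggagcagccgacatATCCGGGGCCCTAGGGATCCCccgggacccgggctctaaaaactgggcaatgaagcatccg
array region: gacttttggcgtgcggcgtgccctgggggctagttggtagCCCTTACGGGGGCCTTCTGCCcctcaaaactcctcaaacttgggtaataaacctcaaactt
5S gene: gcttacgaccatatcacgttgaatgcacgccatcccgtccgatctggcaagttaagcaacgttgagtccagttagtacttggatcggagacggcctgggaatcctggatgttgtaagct
SL1 gene: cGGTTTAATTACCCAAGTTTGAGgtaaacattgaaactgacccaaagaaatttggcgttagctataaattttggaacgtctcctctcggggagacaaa
G and C made up 57.4% of the srw-32 window and 60.4% of the gck-3 window, but 35.6% of the Y43F8C.3 window.

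Candidate regions lay at 35.7 per 100 kb in the right end of V, against 16.2 per 100 kb in the rest of the chromosome, a ratio of 2.20. In the rest of the genome there were 20.7 per 100 kb. The left end of V, of the same length, held 819 regions (19.6 per 100 kb). With all 6 chromosomes divided in the same way, the remaining 29 parts ran from 11.9 per 100 kb in the last part of IV to 29.5 in the first part of I, with a median of 20.6. Replicate 1 had 1657 of its 23022 regions in the right end of V (39.6 per 100 kb), and replicate 2 had 1596 of 22971 (38.1). No other part exceeded 29.9 in replicate 1 or 29.7 in replicate 2. Each replicate list thus placed the right end of V above every other such part.

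**Figure D1:**
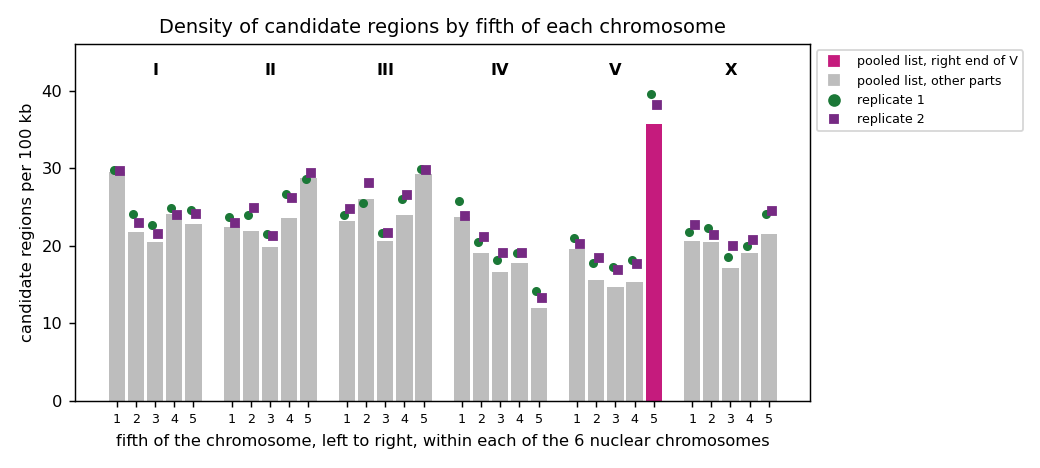
Candidate regions per 100 kb in each of 5 equal parts of the 6 nuclear chromosomes, with bars for the pooled list and points for each replicate. The right end of V stands at 35.7 in the pooled list, above the 29.5 of the first part of I. Both replicates, whose lists are longer, lie above the pooled bar there, as in most other parts.

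The members were crowded as well as numerous. The median distance between neighbouring summits was 1489 bp, against 3362 bp on the rest of V. Of the members, 495 (33.2%) overlapped another member, against 20.5% of the regions elsewhere that overlapped another. Merging members that touch left 1237 separate stretches, which covered 14.8% of the right end, against 8.83% of the rest of the genome. All but 1 of the members had the full width of 450 bp. The exception was the strongest, at 238 bp. The largest distance between neighbouring summits was 41125 bp, from 18079108 to 18120233. It lay partly in the step from 18.0 to 18.1 Mb and partly in the next step. In these, 68.5% and 84.8% of positions start a word of 36 bases that occurs once in the genome.

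Counted in 100 kb steps, the rise began close to the bound but was not even. A step was called high when its count was in the top 10% of the 999 whole steps of the genome, which took 33 regions in the pooled list and 34 in each replicate list. The 10 steps before the one that holds the bound had between 4 and 27 regions. The step from 16.7 to 16.8 Mb, which straddles the bound, had 39, and the next had 33. From 16.9 to 17.6 Mb the counts went back to between 13 and 24, near the genome median of 21. Of 42 whole steps from 16.7 Mb on, 21 were high in the pooled list, 27 in replicate 1 and 23 in replicate 2, where 10.0%, 10.5% and 10.0% of all steps were high.

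The core of the rise was an unbroken run of 11 high steps from 18.3 to 19.4 Mb, with the same ends in the pooled list and in both replicates. It held 544 pooled regions, with 38 to 60 in each step, and 576 and 549 regions in replicates 1 and 2. The run stopped at a single step, from 19.4 to 19.5 Mb, which had 20 pooled regions, 24 in replicate 1 and 27 in replicate 2, and 33 protein-coding genes. After it came another run of 4 high steps, from 19.5 to 19.9 Mb, with 219 pooled regions. In replicate 1 this second run went on to 20.3 Mb. In replicate 2 it ended at 19.9 Mb, with 2 further neighbouring high steps up to 20.2 Mb. The last high step ended at 20.1 Mb in the pooled list, at 20.9 Mb in replicate 1 and at 20.8 Mb in replicate 2. From 20.3 Mb to the last whole step the pooled counts were between 21 and 30.

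**Figure D2:**
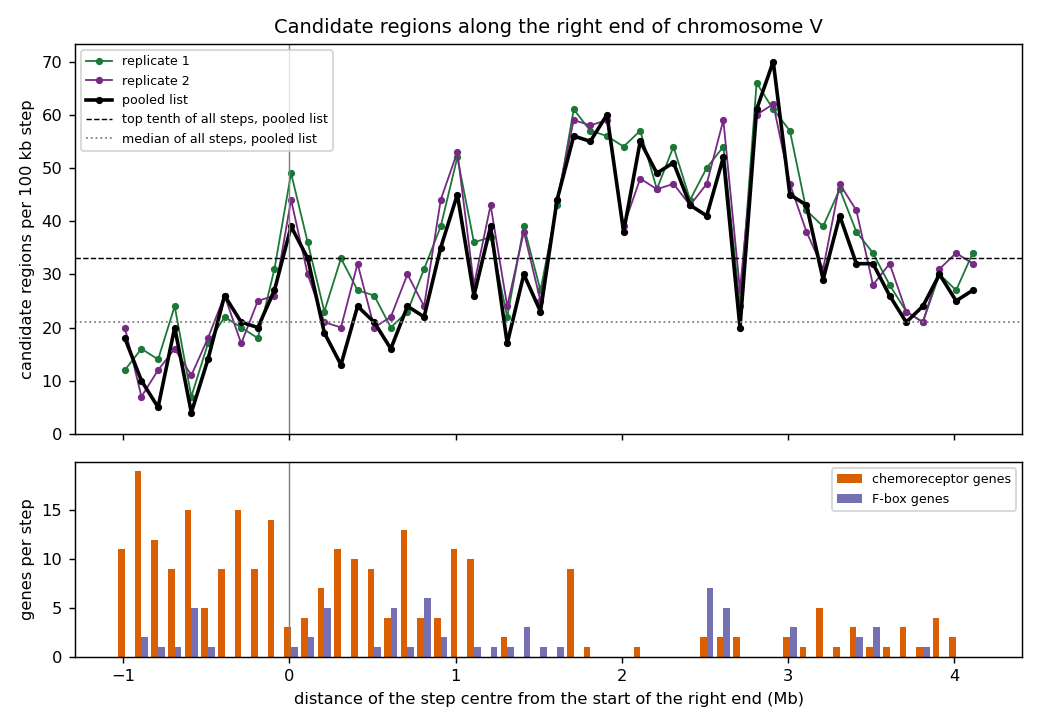
Top, candidate regions in each whole 100 kb step against distance from the start of the right end of V, for the pooled list and both replicates, with the limit of the top 10% of steps and the median of the pooled list. Bottom, chemoreceptor and F-box genes in the same steps; the longest run of high steps holds 15 chemoreceptor genes, and the stretch before it holds 89.

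The 3 steps with the most members were those from 19.6 Mb (70 regions, with 61 and 62 in the replicates), 19.5 Mb (61, with 66 and 60) and 18.6 Mb (60, with 56 and 59). They held 14, 8 and 13 protein-coding genes, of which 13, 8 and 13 had a region. None of these genes was a chemoreceptor or F-box gene, and the listed families had only oac (acyltransferase-like), col (cuticle collagen) and nhr (nuclear hormone receptor) genes there, 1 each. The 3 steps with the fewest members were those from 17.0 Mb (13 regions), 17.3 Mb (16) and 18.0 Mb (17). The step from 17.0 Mb had 33 regions in replicate 1 and 20 in replicate 2, so its pooled count lay below both. It held 30 genes, 11 of them chemoreceptors, and 12 of the 30 had a region. The step from 17.3 Mb held 18 genes, 4 of them chemoreceptors, and 11 of the 18 had a region. The step from 18.0 Mb held 13 genes, as many as the step from 18.6 Mb, with 2 chemoreceptors, and 6 of the 13 had a region. Elsewhere in the genome the highest step had 55 regions, at 0.8 Mb on chromosome I. In the right end of V 4 steps exceeded the highest pooled count elsewhere, 11 exceeded the highest of replicate 1 (50) and 7 that of replicate 2 (49).

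Steps with many members were not those with many genes. Over the 41 whole steps that lie beyond the bound, Spearman's rho between the number of members and that of protein-coding genes was -0.355, with chemoreceptor genes -0.470, with F-box genes -0.273 and with pseudogenes -0.0972. With the share of unique words of 36 bases it was 0.313. Between the replicates' own counts it was 0.909. Neighbouring steps share sequence and gene clusters, so these values describe the map and carry no test. Before the run there were 26.9 members per 100 kb with 89 chemoreceptor and 29 F-box genes, and in the run 49.5 members per 100 kb with 15 and 13.

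The IDR list held 41 of its 327 peaks in the right end of V (12.5%), so that 2.75% of the members were IDR peaks, against 1.44% of the regions elsewhere and a background of 1.53% of all pooled regions. The choice of the stretch used this count, so nothing is read from it. The count rests on the list: the ce10 IDR list had 71 of 471 there (15.1%), and as many strongest regions as the ce11 list holds gave 64 without replicate 2 and 38 without replicate 1. Of the 164 IDR peaks at or above the median signal value of that list, 15 lay there (9.15%). There were 9.80 IDR peaks per Mb, and the other parts had at most 4.91, in the part before the last of II. The weakest IDR peak among the members had a signal value of 84.1 and the strongest member outside the IDR list 83.4. Within the right end, 13 of the 41 lay before 18.3 Mb, among 420 members, and 25 between 18.3 and 19.9 Mb, among 783. Beyond 19.9 Mb there were 3, among 289 members.

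In the pooled list the members had their largest share at ranks 328 to 1000 by signal value. Their median signal value was 37.5 in the pooled list, against 31.7 for the other regions and 31.1 in the left end of V. It was 20.1 against 17.5 in replicate 1 and 20.2 against 17.5 in replicate 2. Members made up 6% of the 100 strongest pooled regions (95% Wilson interval 2.78% to 12.5%), close to their 6.99% of all regions. Their share was 15.4% (11.3% to 20.7%) at ranks 101 to 327 and 18.9% (16.1% to 22%) at ranks 328 to 1000. It was 11.3% at ranks 1001 to 5000, 6.40% at ranks 5001 to 10000 and 4.85% (4.47% to 5.26%) beyond. Replicate 2 gave 5.00%, 14.5% and 18.7% for the first 3 of these classes. Replicate 1 gave 14.0% (8.53% to 22.1%), 22% and 19.5%, against 7.20% of all its regions. The replicates thus differed most among their 100 strongest regions. These intervals cover counting error only, treat regions as independent although many overlap, and say nothing of the replicates. Ranks 1 to 327 of the pooled list are the IDR peaks, which the choice of the stretch used. The shares at these ranks are therefore a description, and nothing is read from them.

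**Figure D3:**
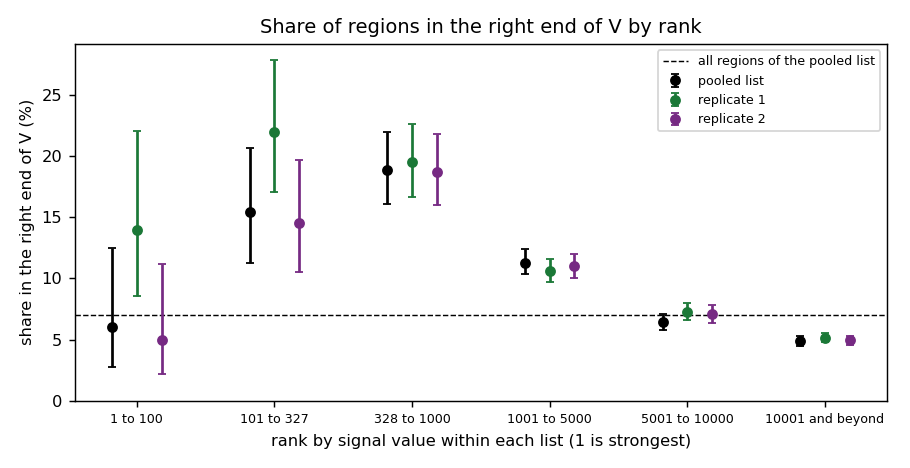
Share of regions that lie in the right end of V, by rank of signal value within the pooled list and within each replicate list, with 95% Wilson intervals as bars. In the pooled list the share is 6% among the 100 strongest, 18.9% at ranks 328 to 1000 and 4.85% beyond rank 10000.

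The share matched in both replicates was higher among members than among other regions. A candidate of each replicate overlapped 984 of the 1492 members by at least 1 bp (66.0%, 63.5% to 68.3%), against 49.5% (48.8% to 50.2%) of the other regions and 44.3% (41% to 47.7%) of those in the left end of V. In the right end 33 members had a candidate in neither. A dense stretch overlaps by position alone more often than a sparse one, and how much of the difference this makes was not tested. Where both replicates had a candidate, Spearman's rho between their signal values was 0.350 over the 984 members and 0.350 over the 9829 other regions. By this measure the order of strength between replicates was as close elsewhere as in the right end.

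For the strongest candidates another measure was taken, the overlap with the strongest candidates of the other replicate. Of the 327 strongest of replicate 1, 64 lay in the right end of V, and 17 of these (26.6%) overlapped one of the 327 strongest of replicate 2, against 57.8% of those elsewhere. From replicate 2 the numbers were 38 and 17 (44.7%), against 52.2% elsewhere. With 64 such regions there in replicate 1 and 38 in replicate 2, the share from replicate 1 is limited by the smaller number. Overlap with any candidate of the other replicate was 96.9% against 98.5% elsewhere from replicate 1, and 97.4% against 98.3% from replicate 2. Among the 41 IDR peaks of the right end, 31 were matched to the 327 strongest of replicate 1, 23 to those of replicate 2, 17 to both (41.5%, 27.8% to 56.6%) and 4 to neither. Elsewhere 149 of 286 were matched to both (52.1%, 46.3% to 57.8%). The intervals of the right end and elsewhere overlap.

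The strongest member was the region of 238 bp printed above, in an intron of Y43F8C.7, with a signal value of 346, rank 4 in the genome. Its signal value was 174 in replicate 1 and 163 in replicate 2 (169 ± 7.83, mean ± SD, n = 2), and it ranked 4 and 6 there. Its summit lay 46 bp from the snoRNA gene Y43F8C.22, of a class of small RNAs that guide the modification of other RNAs. Next to the snoRNA, from base 86 of the printed sequence, it holds TCGAACC, the reverse complement of GGTTCGA. The other members were far weaker, with the second at 127.

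The second member, nearest to the chemoreceptor gene srw-32, lay 4128 bp from its transcript start and inside a pseudogene, with 74.0 in replicate 1 and 52.2 in replicate 2 (63.1 ± 15.4, SD, n = 2). A pair of regions about 1 kb apart lay beside Y59A8B.24. The one from 17952251 to 17952700 was outside protein-coding genes, with a signal value of 124 and replicate values of 74.0 and 55.6. The one from 17951215 to 17951664 was in a promoter window, defined as the stretch between 1000 bp before and 200 bp after the start of a protein-coding transcript. Its signal value was 122, with 58.0 and 65.7 in the replicates. The region in an intron of gck-3, a kinase of the Ste20 group, had 121, with 46.1 and 73.2. Replicate 1 was higher at srw-32 and replicate 2 at gck-3, so the replicates did not differ in 1 direction.

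Among the 20 strongest members 9 lay in introns, 5 in promoter windows, 3 in exons and 3 outside protein-coding genes. The promoter windows were those of Y59A8B.24, F49H6.8 (signal value 116), Y43F8B.1 (115), the chemoreceptor gene srh-236 (111) and the nuclear hormone receptor gene nhr-241 (101). Beside those of Y43F8C.7 and gck-3, the introns were in Y43F8C.3 (124), cyp-33D3 (a cytochrome P450, 113), unc-51 (the kinase that starts autophagy and acts in axon growth, 111), Y43F8A.2 (106), oac-1 (100), Y59A8B.21 (100) and C14B4.2 (100). Those in coding exons were in slo-1 (a calcium-activated potassium channel, 114), Y43F8B.3 (108) and usp-50 (a deubiquitinating enzyme, 101). The remaining one, outside protein-coding genes, was nearest to tcc-1 (116). All 20 had a candidate in both replicates, 17 were matched to the 327 strongest of replicate 1 and 17 to those of replicate 2, and 11 were higher in replicate 1.

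Some of these regions had unequal signal values in the replicates. At unc-51 the signal value was 30.1 in replicate 1, rank 1638, and 80.8 in replicate 2, rank 44. At slo-1 it was 78.6 in replicate 1 and 36.9 in replicate 2, and at usp-50 62.3 and 26.9. A region in the promoter window of sws-1, an IDR member chosen after the values were seen for the largest ratio between replicates, had a pooled signal value of 96.9. Replicate 1 had 14.0 there, rank 20289, and replicate 2 had 62.6, rank 113.

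**Figure D4:**
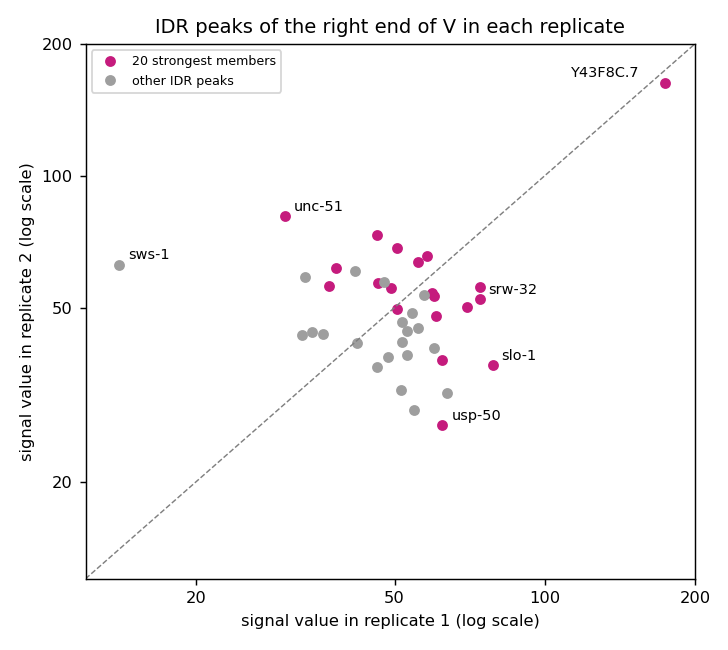
Signal value in replicate 1 against replicate 2, both on log scales, for the 41 IDR peaks of the right end of V, with the 20 strongest members in colour and a dashed line of equal values. Y43F8C.7 lies near the line at 174 and 163, while sws-1 lies at 14.0 and 62.6.

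By position, 22.3% of member summits (20.2% to 24.4%) lay in a promoter window, against 32.2% (31.6% to 32.9%) of the other regions and 30.5% in the left end of V. Introns held 32.9% (30.6% to 35.3%), against 23.2%, coding exons 21.2% against 21.9%, and sequence outside protein-coding genes 21.5% against 20%. The right end also has less promoter sequence, with windows on 23.8% of its bases against 31.6% on the rest of V, and more intron, with 30.8% against 21%. Density was therefore also taken per 100 kb of each kind of sequence. It was 33.3 in promoter windows against 17.5 on the rest of V, 49.0 against 17.7 in coding exons, 38.1 against 15.9 in introns and 27.6 against 13.1 outside protein-coding genes. The higher density was present in every one of these classes, and the ratio to the rest of V was largest in coding exons.

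Of the 41 IDR members, 12 lay in promoter windows (29.3%, 17.6% to 44.5%), against 54.5% (48.8% to 60.2%) of IDR peaks elsewhere. In coding exons there were 6 (14.6%, 6.88% to 28.4%), against 2.45% (1.19% to 4.97%) elsewhere. Pseudogene bodies held 6.03% of the member summits, against 2.91% on the rest of V, where they take up 9.55% and 4.93% of the bases. Of 329 pseudogenes in the right end 65 held a summit (19.8%, 15.8% to 24.4%), against 15.7% (14.1% to 17.5%) elsewhere.

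The right end of V held 819 protein-coding genes, 19.6 per 100 kb. A member lay in the body or promoter window of 501 of them (61.2%, 57.8% to 64.5%), against 50.4% of genes elsewhere. Chemoreceptor genes numbered 130, of which 67 had a region (51.5%, 43% to 60.0%), against 317 of 1173 elsewhere (27.0%, 24.6% to 29.6%). By replicate these shares were 63.8% and 60.8%, against 31.5% elsewhere in each. F-box genes numbered 51, of which 19 had a region (37.3%, 25.3% to 51%), against 32.8% (27.5% to 38.6%) elsewhere. Among the 562 genes of no listed family 64.4% had one, against 53.0%. For F-box genes the replicates lay on opposite sides, with 31.4% against 36.2% elsewhere in replicate 1 and 41.2% against 33.2% in replicate 2. The stretch was chosen for its density of regions, so higher shares of its genes with a region are part of that choice and are given as a description.

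Within the chemoreceptors, the Str superfamily was the most numerous, with 79 genes, and 43 had a region (54.4%, against 27.3% elsewhere). It includes srh, with 61 genes of which 31 had a region (50.8%, against 24.5%), and str, with 6 of 9 against 21.7%. The srw family, related to peptide receptors, had a region at 10 of 13 genes (76.9%, 49.7% to 91.8%), against 28.1% elsewhere. In the pooled list 4 chemoreceptor families with several genes there had shares below those elsewhere, srz with 3 of 13 genes (23.1%, against 26.0%), srbc with 2 of 9 (22.2%, against 29.0%), sri with 3 of 6 (54.5% elsewhere) and srsx with 0 of 3 (14.7% elsewhere). Each of them had a share above that elsewhere in at least 1 replicate. In replicate 1 srbc had 55.6% against 27.4%, srz 38.5% against 34.0% and sri 83.3% against 54.5%, and in replicate 2 srz had 30.8% against 28.0% and srsx 66.7% against 17.6%. Of the F-box families, fbxa had 14 of 36 genes with a region (38.9%, against 32.8%, but 30.6% against 35.8% in replicate 1) and fbxb 5 of 15 (33.3%, against 36%). Median lengths of chemoreceptor genes were 1675 bp in the right end and 1645 bp elsewhere.

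**Figure D5:**
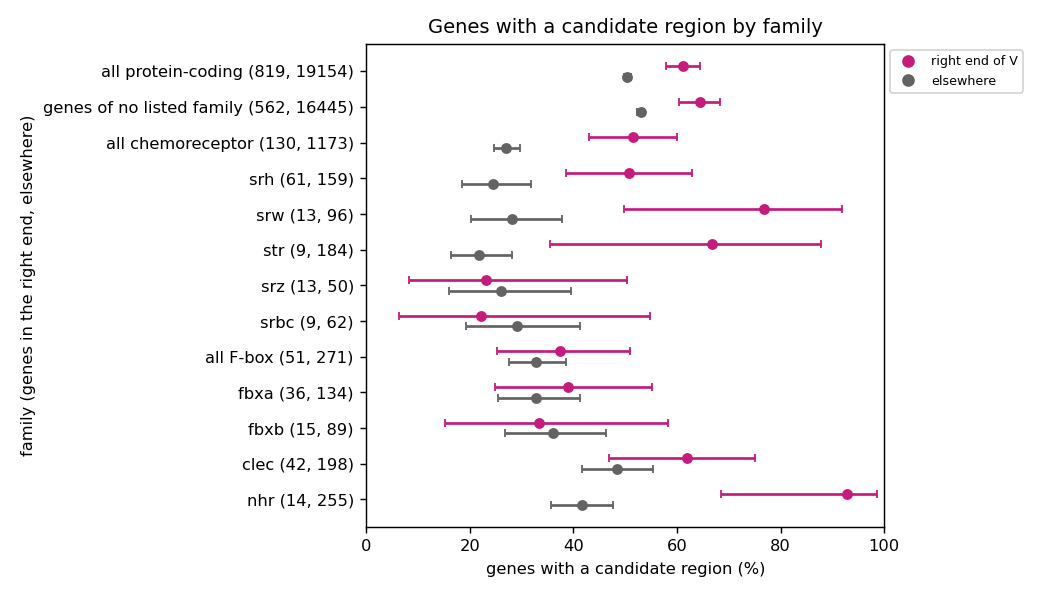
Share of genes with a candidate summit in the body or promoter window, in the right end of V and elsewhere, by family, with the number of genes in each and 95% Wilson intervals. Chemoreceptor genes stand at 51.5% in the right end and 27.0% elsewhere, and F-box genes at 37.3% and 32.8%.

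Families outside the chemoreceptor and F-box groups gave 53 of 76 genes with a region (69.7%, 58.7% to 78.9%), against 43.3%. Nuclear hormone receptor genes had one at 13 of 14 (92.9%, 68.5% to 98.7%, against 41.6%). An IDR peak lay at 3 of the 14, against 3 of 255 elsewhere and 36 of all 819 protein-coding genes of the right end. Genes for C-type lectins (clec), which take part in recognition of sugars, had a region at 26 of 42 (61.9%, against 48.5%). All 5 twk genes, which encode potassium channels, had one (against 56.4%), though 80.0% in replicate 1. The skr genes (0 of 3, against 23.5%) and the ins gene (0 of 1, against 27.0%) had none in the pooled list or either replicate. The cyp, col, scl and oac genes lay above their shares elsewhere in the pooled list, with few genes each. The run was defined by its count of regions, so the shares of genes along the right end describe that choice further and support nothing. Of chemoreceptor genes, 42.7% had a region before the run, 80.0% (12 of 15) in it and 65.4% after it, and of genes of no listed family 56.1%, 81.9% and 60.1%. F-box genes lay in another order, with 44.8% (13 of 29) before the run, 30.8% (4 of 13) in it and 22.2% (2 of 9) after it. In the left end of V 26.5% of the 275 chemoreceptor genes had a region.

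In all, 127 member summits (8.51%, 7.20% to 10.0%) lay in the body or promoter window of a chemoreceptor or F-box gene. The share was 2.34% of all other regions and 10.4% of those in the left end of V. These families also made up more of the genes, with 181 of 819 in the right end and 1444 of 19154 elsewhere. How much of the difference in summits this makes was not tested. Of the 41 IDR peaks 1 did (2.44%, 0.432% to 12.6%), at srh-236 and srh-113, an interval that holds the share of all members. Beyond it, the strongest region of a chemoreceptor family was at srd-70, with a signal value of 68.1 and replicate values of 20.3 and 39.2. It was followed by srab-12 (65.1, with 30.6 and 33.2), srw-23 (63.1, with 32 and 22.8), srv-3 (61.5, with 32.5 and 34.9), srbc-34 (53.6), str-77 (52.7) and srr-2 (50.7). The strongest regions of srxa (srxa-15), srz (srz-58), sri (sri-67), srx (srx-18), srg (srg-34), sre (sre-21), srj (srj-26) and srt (srt-45) had signal values from 28.7 to 47.8. Among F-box genes the strongest were at fbxa-176, with 64.3 and replicate values of 34.9 and 28.4, and fbxb-64, with 53.9. The srt-45 region had no candidate in replicate 2.

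The 5S and SL1 genes carried no member. Of the 15 annotated 5S genes and 12 SL1 genes of the right end, none had a summit within 100 bp in the pooled list or in either replicate, and no member overlapped one. The array spans 16205 bp from 17115903 to 17132107 and holds 14 of the 5S genes and all 12 SL1 genes. In the array 10 of the 5S genes and 10 of the SL1 genes are identical to the printed copies, and 18.4% of its positions start a unique word of 36 bases. Whether the authors counted reads that match several places is not given in the sources used here, so a lack of regions on these genes cannot be told apart from a lack of usable reads.

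The one pooled region in the array, printed above, lay from 17127942 to 17128391 with a signal value of 66.0, rank 831, and 29.0 and 35.8 in the replicates. Its summit was 237 bp before the start of a 5S gene, and 31.3% of its words were unique. Replicate 2 had a further region in the array, from 17116888 to 17117311, with a signal value of 21.9 and all of its words unique. The remaining 5S gene, rrn-4.15, lay outside the array, and its nearest summit was 442 bp away with a signal value of 69.0. Within 10 kb on each side of the array there were 7 pooled regions.

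Other genes for small RNAs were marked in part. Of 13 tRNA genes 6 had a summit within 100 bp (46.2%, against 40.7% of those elsewhere), 2 of them at IDR peaks. Of all members, 2.75% were IDR peaks, but this is a share of regions and not of genes. The share of tRNA genes elsewhere at IDR peaks is not given here, so nothing is read from the 2. The 2 tRNA genes were WBGene00014616, with a signal value of 91.3 and replicate values of 53.0 and 44.1, and WBGene00014567, with 89.4 and replicate values of 33.0 and 58.8. Neither gene holds a unique word of 36 bases, and how reads from other copies were placed is not given in the sources used here. Of 6 snoRNA genes 3 had a summit within 100 bp, against 24.4% of those elsewhere, at Y43F8C.22, Y51A2D.40 (signal value 49.3) and B0250.19 (26.2), and of 5 microRNA genes 1 did, cel-mir-4935 (signal value 42), against 14.1% elsewhere.

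Base content at member summits was close to that of other regions, at 42.4% ± 10.7 G and C (SD over 1492 windows of 101 bp) against 42.6% ± 10.1. At IDR members it was 52.7% ± 9.42 (SD over 41 windows), against 49.6% ± 8.23 at IDR peaks elsewhere, while the whole right end has 35.6% G and C and the genome 35.4%. On average 95.5% of the members' words of 36 bases were unique, against 97.7% in other regions, and 65.5% of members were unique throughout, against 82.6% in other regions and 69.7% in the left end of V. Of the bases of the right end, 87.8% start a unique word, against 87.4% in the left end of V, a median of 89.2% in the other 11 ends and 92.1% of the genome. At IDR members 97.3% of words were unique on average, against 93.4% at IDR peaks elsewhere. Under 50% unique words were found in 26 members (1.74%), against 0.589% of regions on the rest of V and 0.776% of all other regions. Without such regions the ratio of density to the rest of V was 2.17 in place of 2.20. This limit takes out few regions. Unique throughout were 978 of the 1492 members and 2230 of 2718 regions on the rest of V. How far repeated sequence adds to the density was not tested.

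A pair of short motifs was searched on both strands in the 101 bp around each summit. AATCAC, the core bound by GFI proteins of vertebrates, was in 3.89% of members (3.02% to 4.99%) and 4.33% (4.06% to 4.63%) of other regions. Among IDR peaks it was in 1 of 41 in the right end (2.44%, 0.432% to 12.6%) and 11 of 286 elsewhere (3.85%, 2.16% to 6.75%). GGTTCGA, the core of the B box inside tRNA genes, was searched after the strongest sequences had been read. It was in 50 members (3.35%, 2.55% to 4.39%) and in 1.26% (1.11% to 1.42%) of other regions. The motif is also denser in the sequence itself, with 16.4 copies per 100 kb in the right end of V and 7.49 in the rest of the genome. Of the 50 members with it, 3 had their summit within 100 bp of an annotated tRNA gene (6%, 2.06% to 16.2%), against 82 of 250 elsewhere (32.8%, 27.3% to 38.8%). In the right end 24 of the 50 lay in introns, where 32.9% of all members lay, and 36 were unique throughout, as were 65.5% of all members. The run from 18.3 to 19.4 Mb held 20 of the 50, and 544 of all 1492 members. A candidate in both replicates was found for 33 (66.0%), the same share as for all members. Elsewhere 74 of the 250 lay in introns, 142 were unique throughout and 148 (59.2%) had a candidate in both replicates. The median signal value of the 50 was 35.5, against 37.5 for all members and 37.7 for the 250 elsewhere. The Y43F8C.7 region was the only IDR peak among the 50, where 2.75% of all members were IDR peaks. Of the 250 elsewhere, 23 were IDR peaks.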

How the data were processed

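The signal values in the deposited lists were made by the authors, relative to a control that is not analysed here, per the file headers and the deposited file lists. Aligner, peak caller, IDR threshold, treatment of reads that match several places, and read depth are not given in the sources used here. In ce11, the 2 replicate lists, the pooled list and the IDR list were used, with the ce10 lists as alternatives at the same numeric bound. No coordinate was converted. Signal values were not rescaled. Between pooled and replicate lists they were compared only as alternatives of the median signal value, although the scales may differ.

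Genes came from the Ensembl annotation of WBcel235 and sequence from RefSeq. It gives 1 symbol to several identical 5S or SL1 genes. Regions were placed by summit, steps were counted from position 1, and lists were matched by an overlap of 1 bp, keeping the strongest partner. Families were taken by symbol prefix. A word of 36 bases was unique when found once on both strands of the 6 nuclear chromosomes. The functions were checked on made data. With 1 group of 2 replicates no test was made, and Wilson intervals (95%) cover counting error only. The members and gene lists were chosen with earlier results of these data known. Named items are the 20 members of largest signal value, the strongest member of each chemoreceptor or F-box family, the 3 steps with most and fewest members, and the 5S and SL1 genes. Other named items are said to be chosen afterwards or are counts of 5 or fewer genes. Alternatives covered the lists, bound, step width, overlap rule, windows and word length. Python 3.11.15, numpy 2.4.6, pandas 2.3.3, scipy 1.17.1 and matplotlib 3.10.9 were used.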

Additional observations from a re-analysis of the deposited data

How the results depend on the processing

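Of 41 values under alternatives of 11 results, 16 moved by less than the spread between replicates, or stayed within 1.5 times for counts, and 25 moved by more. With a replicate left out, members numbered 1596 to 1657, high steps 23 to 27, and regions on 5S or SL1 genes 0 in both. Without replicate 2 the strongest regions in the right end numbered 64, against 41 IDR peaks, and without replicate 1 they numbered 38. The ratio of density to the rest of V, 2.20 as reported, was 2.09 to 2.14 from a single replicate, 2.29 for the last of 6 equal parts of the chromosome, 1.96 for the last of 4 and 2.11 for covered bases. High steps numbered 46 of 84 at 50 kb and 13 of 21 at 200 kb, as there are more or fewer steps. The ce10 IDR list, which is longer (471 peaks), had 71 in the right end (15.1%), and the stronger part of the ce11 list had 15 of 164 (9.15%). The median signal value was 20.1 to 20.2 from a single replicate, on that list's own scale, against 37.5 in the pooled list. These alternatives are counted among the 25 that moved, but cannot be told apart from a difference of scale between lists. The share with a candidate in both replicates was 56.0% with an overlap of the shorter region by 50%, 37.9% for summits within 100 bp and 65.1% in ce10. The promoter share was 12.6% with a window from 500 bp upstream to 100 bp downstream, 38.4% with 2000 bp upstream, and 22.7% to 23.6% from a single replicate. Summits at chemoreceptor or F-box genes made up 11.5% by the nearest transcript start and 8.81% to 10.2% from a single replicate. GC content at summits was 42.7% within 25 bp and 41.5% within 100 bp on each side. Unique words made up 97.3% at 50 bases and 91.4% at 25 bases. Within 500 bp of a 5S or SL1 gene there were 2 summits. Except where construction shows it, the cause of these moves was not tested. Unknown depth and the unknown treatment of repeated sequence limit what can be said of weak members and of the array.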
